A study of Mus musculus with 8 samples.

Results

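The 6 genes described here make or carry the attachment of meiotic chromosome ends to the nuclear envelope in mouse spermatocytes: Terb1, Terb2, Majin, Sun1, Spdya and Cdk2. They were found by gene name in the deposited table of 38163 genes, where each name has 1 row, and all 6 were among the 16702 genes with at least 1 FPKM (fragment counts scaled by transcript length and library depth) in at least 2 libraries, which were the genes tested. RNA was taken from whole testis of wild-type (WT) and Alkbh5-null (KO) males of 2 ages, postnatal days 12 (P12) and 18 (P18), with 2 libraries in each of the 4 groups and 8 in all. ALKBH5 is an enzyme that removes the N6-methyladenosine mark from RNA, and the series asks what it does in spermatogenesis. At P12 the testis holds mainly spermatocytes in leptotene and zygotene, and at P18 mainly pachytene and diplotene ones, per the series description. The labels give no strain, no description of the null allele and no statement on whether animals were pooled or whether replicates are different animals, so p-values measure only the spread between these libraries, which may be technical.

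Early in meiotic prophase the chromosome ends are tied to the inner nuclear membrane, so that forces made in the cytoplasm can move chromosomes and help homologues find each other. TERB1 binds the telomere protein TRF1, TERB2 links TERB1 to MAJIN, and MAJIN spans the inner nuclear membrane and takes over the telomere end from the shelterin complex. SUN1 crosses the inner membrane and joins the telomeres to KASH5 in the outer membrane and through it to dynein, while SPDYA (Speedy A) binds and activates the kinase CDK2 at telomeres, which is needed for a stable attachment.

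Alkbh5 itself was measured first, as a check of the labels. Its level was 10.2 and 17.8 FPKM in the libraries labelled WT P12 and 0.0564 and 0.0218 FPKM in those labelled KO P12. At P18 it was 0.00985 FPKM in the library labelled WT P18 replicate 1 and 9.07 in WT P18 replicate 2, and 17.9 in the library labelled KO P18 replicate 1 and 0.155 in KO P18 replicate 2. The level therefore went against the label in 2 of the 8 libraries, which are replicate 1 of WT P18 and replicate 1 of KO P18, and each P18 group holds 1 library with the transcript and 1 nearly without it. Every P18 direction below is that of the labels, and each is given also without these 2 libraries, an analysis in which each P18 group has 1 library that is assumed to vary like the P12 libraries. Total counts lay between 58417668 and 71537841 per library. Markers of Sertoli cells, Leydig cells, spermatogonia and spermatocytes were present in every library, and those of round spermatids were at or near 0 (summed level 0.380 to 5.47 FPKM over 6 genes). Hepatocyte markers (6 genes) summed to 187 and 175 FPKM in KO P18 replicates 1 and 2 and to at most 2.79 FPKM elsewhere, and their part in the P18 results was not tested.

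**Figure D1:**
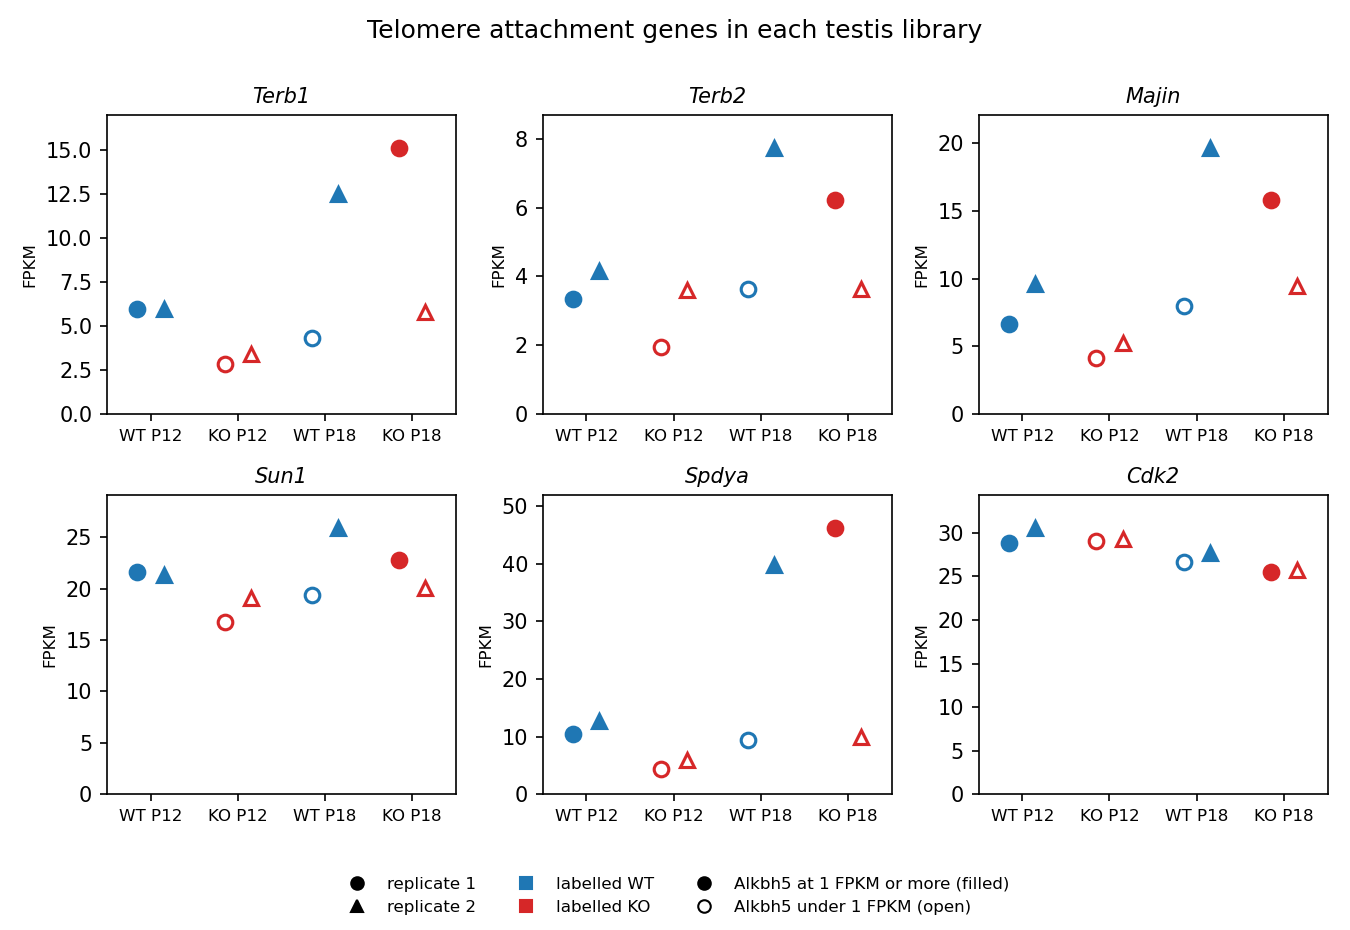
Level of each of the 6 genes in FPKM (y axis, from 0) in the 8 testis libraries, by labelled group (x axis). Blue is WT and red is KO, circles are replicate 1 and triangles replicate 2, and open symbols are libraries with Alkbh5 under 1 FPKM. In 5 of the 6 panels WT P18 replicate 2 and KO P18 replicate 1 are the highest of the 8, and Cdk2 lies between 25.5 and 30.5 FPKM throughout.

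Terb1 (ENSMUSG00000052616), the telomere-binding subunit, lies on chromosome 8 at 104446719 to 104509910 on the minus strand of GRCm38. At P12 its level was 5.97 and 5.96 FPKM in the WT and 2.86 and 3.44 FPKM in the KO libraries, and at P18 4.35 and 12.6 FPKM in the WT and 15.1 and 5.80 FPKM in the KO libraries (replicate 1, then 2, here and below). Both KO P12 libraries were below every other library, and WT P18 replicate 2 and KO P18 replicate 1 stood above the remaining 6. Terb2 (ENSMUSG00000027229), the linking subunit, lies on chromosome 2 at 122186272 to 122206397 on the plus strand. It had 3.34 and 4.17 FPKM in WT and 1.96 and 3.59 FPKM in KO at P12, then 3.64 and 7.72 FPKM in WT and 6.23 and 3.63 FPKM in KO at P18. The P12 groups overlapped for Terb2, since KO P12 replicate 2 lay between the WT P12 libraries. Its lowest count was 276, in KO P12 replicate 1, with an exact Poisson 95% interval of 244 to 311 that covers counting error only. Majin (ENSMUSG00000024786), the membrane subunit, lies on chromosome 19 at 6184388 to 6224225 on the plus strand. It had 6.65 and 9.58 FPKM in WT and 4.12 and 5.26 FPKM in KO at P12, then 7.97 and 19.6 FPKM in WT and 15.8 and 9.44 FPKM in KO at P18. Again both KO P12 libraries were the lowest of all.

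Sun1 (ENSMUSG00000036817), which most cell types use to link nucleus and cytoskeleton, lies on chromosome 5 at 139200637 to 139249840 on the plus strand. Its level spanned a narrow range, with 21.6 and 21.3 FPKM in WT and 16.7 and 19.1 FPKM in KO at P12, then 19.3 and 25.8 FPKM in WT and 22.7 and 20.1 FPKM in KO at P18. The highest library had 1.55 times the lowest. Spdya (ENSMUSG00000052525), the activator of CDK2 at telomeres, lies on chromosome 17 at 71552061 to 71589533 on the plus strand. It varied most, with 10.4 and 12.7 FPKM in WT and 4.36 and 5.94 FPKM in KO at P12, then 9.34 and 39.7 FPKM in WT and 46.1 and 9.97 FPKM in KO at P18. Its highest library had 10.6 times the lowest, against 5.29 for Terb1, 4.77 for Majin and 3.94 for Terb2. Cdk2 (ENSMUSG00000025358), the kinase, which also works in mitotic cells, lies on chromosome 10 at 128697939 to 128705030 on the minus strand. It had 28.8 and 30.5 FPKM in WT and 29.0 and 29.3 FPKM in KO at P12, then 26.6 and 27.7 FPKM in WT and 25.5 and 25.8 FPKM in KO at P18, a ratio of highest to lowest of 1.20. In WT P12 the order of levels from low to high was Terb2, Terb1, Majin, Spdya, Sun1 and Cdk2, and no neighbours in that order overlapped between their libraries. By group mean, Terb1, Terb2, Majin, Sun1 and Spdya were lowest in KO P12. WT P12 came next for all of these but Sun1, for which the mean was 21.5 FPKM in WT P12 and 21.4 in KO P18. The spread within each P18 group reached into or below the WT P12 values for all 5, and the P18 groups overlapped each other. The exons of Spdya share 18.3% of their bases with Trmt61b on the opposite strand and 11.4% with the pseudogene Mettl4-ps1 on the same strand, those of Sun1 3.98% with 4930520M14Rik on the opposite strand and those of Cdk2 0.547% with Pmel on the opposite strand. The strand setting of the counting is not given in the sources used here, so these values are uncertain to that extent.

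Promoter windows of RefSeq on GRCm38.p6, 250 bases before to 50 after a gene's start, were matched by symbol for 4 of the 6 genes (Terb1, Sun1, Spdya and Cdk2, Sun1 with a window for each of 2 starts), and Terb2 and Majin are named only. They are shown because, by FPKM, Terb1, Sun1 and Spdya followed a similar order of libraries and Cdk2 did not. The windows were searched on both strands for CNCCTCAG, the motif bound by the meiotic initiators STRA8 and MEIOSIN, which 7.94% of 32851 windows of the same length hold. It was found in the Spdya and Cdk2 windows and the first Sun1 window, each time as its reverse complement. The match lay 35 to 42 bases after the start in Spdya, 42 to 49 after the start in Sun1 and at positions -89 to -82 from the start in Cdk2. The Terb1 window and the second Sun1 window do not hold these letters. The 30 bases around each match follow, with the match in capitals, at chr17:71552081-71552110 on the plus strand for Spdya, chr5:139200657-139200686 on the plus strand for Sun1 and chr10:128705122-128705151 on the minus strand for Cdk2.
Spdya: cctgaggtagatcgCTGAGGCGgaggctgt
Sun1: cctgggcggtgcggacgaggcCTGAGGCGg
Cdk2: gggcggggcctCTGAGGCGggagcgcgatg

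Spdya, the member with the widest range, also held letters of the MYB family motif (CAACNG or TAACNG, on either strand) in 3 places, where A-MYB is known as a driver of pachytene genes. Such letters are common, since 49.7% of the windows hold them. They were absent from the Terb1 and Cdk2 windows, and the second Sun1 window held 1 match. The 250 bases before the Spdya start, chr17:71551811-71552060 on the plus strand, are given with the 2 upstream matches in capitals. The 250 bases before the Terb1 start, chr8:104509888-104510137 on the minus strand, are given with a GC box (GGGCGG or its reverse complement, held by 35.7% of windows) in capitals. GC boxes do not set Terb1 apart: the Spdya and Cdk2 windows and the first Sun1 window each hold more of them. They are left unmarked in the Spdya and Cdk2 sequences. Those before the Cdk2 start, chr10:128705052-128705301 on the minus strand, carry the CNCCTCAG match in capitals, and the Cdk2 window also holds 2 matches to GCGGGAA, the E2F motif, which 4.60% of windows hold. The search also covered the CCAAT box (CCAAT, held by 37.4% of windows) and the CRE motif (TGACGTCA, held by 1.79%). The CCAAT box was in the Spdya window, the Cdk2 window and both Sun1 windows and not in the Terb1 window. The CRE motif was in none of the windows of these genes. A match is a description of letters and was not tested for binding.
Spdya upstream: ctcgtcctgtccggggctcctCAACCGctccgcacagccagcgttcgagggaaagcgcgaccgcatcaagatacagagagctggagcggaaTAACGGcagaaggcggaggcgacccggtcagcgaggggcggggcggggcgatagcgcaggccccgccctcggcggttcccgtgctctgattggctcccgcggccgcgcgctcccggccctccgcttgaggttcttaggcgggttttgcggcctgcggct
Terb1 upstream: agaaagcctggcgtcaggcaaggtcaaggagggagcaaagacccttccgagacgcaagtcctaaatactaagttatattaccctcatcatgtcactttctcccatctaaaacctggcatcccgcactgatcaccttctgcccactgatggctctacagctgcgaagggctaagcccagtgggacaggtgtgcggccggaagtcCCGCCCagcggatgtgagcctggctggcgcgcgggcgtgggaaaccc
Cdk2 upstream: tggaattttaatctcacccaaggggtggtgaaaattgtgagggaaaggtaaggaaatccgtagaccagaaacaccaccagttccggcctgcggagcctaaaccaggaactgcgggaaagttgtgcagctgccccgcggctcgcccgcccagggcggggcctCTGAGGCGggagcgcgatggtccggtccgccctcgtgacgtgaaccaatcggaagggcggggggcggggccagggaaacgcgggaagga

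The first comparison asks how the 6 genes differ between the genotypes early in meiotic prophase, at P12. Terb1, Majin, Sun1 and Spdya had lower FPKM in both KO libraries than in both WT libraries, while Terb2 and Cdk2 overlapped between the genotypes. Lower without overlap were 24.0% of all tested genes. In edgeR's quasi-likelihood test of the 4 P12 libraries (counts scaled by the trimmed mean of M-values, TMM, with Benjamini-Hochberg adjustment over all 16702 genes and a threshold of 0.05), none of the 6 genes passed, against 0.0539% of genes called in either direction. Spdya had the largest difference, with a log2 fold change of KO from WT of -1.15 ± 0.18 (SE, n = 2 per group, adjusted p = 0.0791, edgeR). Terb1 followed with -0.91 ± 0.13 (adjusted p = 0.0703, edgeR) and Majin with -0.78 ± 0.22 (adjusted p = 0.207, edgeR). Terb2 differed by -0.42 ± 0.29, Sun1 by -0.25 ± 0.08 and Cdk2 by -0.01 ± 0.07 (adjusted p = 0.579, 0.259 and 0.970, edgeR). Fewer cells of a type and less RNA per cell cannot be told apart in whole testis.

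The call at P12 depends on the tool. DESeq2 on the same 4 libraries called Spdya (-1.16 ± 0.19, adjusted p = 2.86e-07), Terb1 (-0.91 ± 0.17, adjusted p = 6.79e-06) and Majin (-0.78 ± 0.24, adjusted p = 0.0290) lower, 3 of the 6 genes, against 3.24% of all tested genes called lower by DESeq2. Sun1, Terb2 and Cdk2 did not pass in DESeq2 (adjusted p = 0.114, 0.642 and 0.982). With the filter raised to 5 FPKM, edgeR called Terb1 (adjusted p = 0.0419) and Spdya (adjusted p = 0.0454), where 0.801% of genes were called. Without WT P12 replicate 1, which leaves 1 WT library, the log2 difference of Spdya was -1.29, wider than with all 4 libraries. The library left out was the WT P12 library with less Spdya (10.4 against 12.7 FPKM). Values of Spdya with each other library left out are not given here. The median of the 6 genes was -0.60 on the log2 scale, and that of all tested genes was 0.01. Among all tested genes, 3.58% had a lower fold change than Spdya, 4.61% than Terb1, 5.46% than Majin, 10.03% than Terb2, 16.5% than Sun1 and 44.7% than Cdk2. The difference in Terb2 rested on KO P12 replicate 1: without that library it was -0.06, and without KO P12 replicate 2 it was -0.92.

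**Figure D2:**
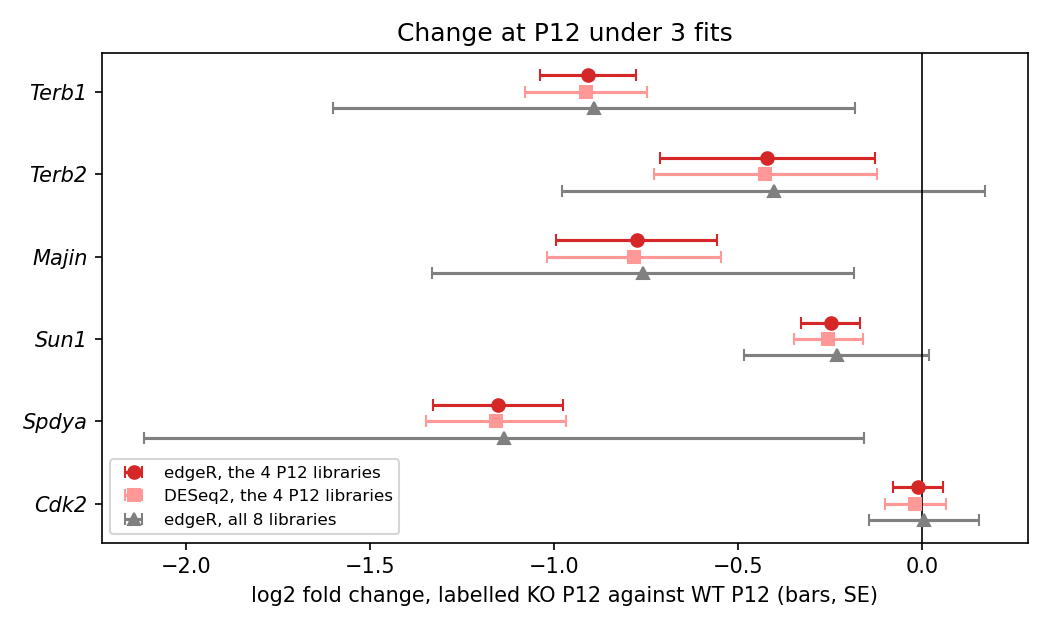
Log2 fold change of KO P12 from WT P12 (x axis) for each gene (y axis) in edgeR and DESeq2 on the 4 P12 libraries and in edgeR on all 8 libraries, with bars of 1 SE. Spdya, Terb1 and Majin lie between -1.16 and -0.76 in each fit, while the SE of Spdya is 0.18 with the P12 libraries alone and 0.98 with all 8.

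Partner genes of the attachment were placed beside the 6 at P12, by lists chosen with earlier results of these data known. None of the 7 shelterin genes, which cap telomeres in all cells, passed in edgeR, and their median was -0.05 on the log2 scale. Tinf2 (-0.25 ± 0.08) and Terf2ip (0.15 ± 0.09) had the lowest p among them and did not pass. None of 13 genes of the nuclear membrane bridge and lamina passed (median -0.01). Within that list Ccdc155, also named Kash5 and the outer membrane partner of SUN1 in meiosis, had 15.2 and 21.4 FPKM in WT P12 against 8.29 and 10.2 in KO P12. Its log2 difference was -0.97 ± 0.18, which did not pass in edgeR (adjusted p = 0.103) and passed in DESeq2 (-0.98, adjusted p = 2.58e-06). Sun3, a relative of Sun1 known from spermatids, had the next lowest p (-1.93 ± 0.73) and did not pass. All 14 synaptonemal complex and meiotic cohesin genes were lower in KO P12, with a median of -0.44, and none passed in edgeR. Sycp2, a component of the chromosome axis, came closest (-0.79 ± 0.11, adjusted p = 0.0703, edgeR), then Hormad2, which marks unsynapsed axes (-0.88 ± 0.15, adjusted p = 0.0941, edgeR). DESeq2 called 8 of these 14 lower (Sycp1, Sycp2, Sycp3, Syce1, Tex12, Hormad1, Hormad2 and Smc1b), against 3.24% of all tested genes. Of the 4 cyclins that bind CDK2 none passed, and Ccne1 (-0.46 ± 0.14) and Ccne2 (-0.25 ± 0.10) had the lowest p. None of 7 other cyclin-dependent kinases and their inhibitors and none of 7 dynein motor genes passed at P12 in edgeR or DESeq2 (medians 0.000093 and -0.07 in edgeR).

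Markers of the cell types moved beside these values at P12. Leptotene and zygotene markers summed to 293 and 333 FPKM in WT P12 and 161 and 221 in KO P12, with a median difference of -0.67 on the log2 scale, and all 8 genes were lower. Pachytene and diplotene markers summed to 63.4 and 104 FPKM in WT P12 and 23.8 and 30.2 in KO P12 (median -1.91, all 8 lower, Pgk2 at 0 in KO P12 replicate 1). Sertoli markers summed to 441 and 406 FPKM in WT P12 and 465 and 517 in KO P12 (median 0.20, all 8 higher). No marker of these lists passed in edgeR at P12. DESeq2 called the leptotene and zygotene markers Sycp3 (-0.71, adjusted p = 9.46e-06) and Hormad1 (-0.79, adjusted p = 2.77e-05) lower, against 3.24% of all tested genes. It did not call Rec8 of the same list (adjusted p = 0.297) or the pachytene marker Ccna1 (adjusted p = 0.863). DESeq2 results for the other markers are not given here. The part of cell composition in the 6 genes' values was not tested. The 5 genes other than Cdk2 were also set against Sycp3, which encodes an axis protein of spermatocytes and was chosen after its values were seen. The FPKM ratio of Terb1 to Sycp3 was 0.0416 and 0.0377 in WT P12 and 0.0371 and 0.0323 in KO P12, lower in both KO libraries by a narrow gap. The ratio of Majin to Sycp3 was 0.0463 and 0.0606 in WT P12 and 0.0535 and 0.0493 in KO P12. The Majin ratios of KO P12 lay inside the WT range. Terb2 to Sycp3 overlapped too, with 0.0233 and 0.0264 in WT P12 and 0.0254 and 0.0337 in KO P12. Spdya to Sycp3 was 0.0722 and 0.0807 in WT P12 and 0.0567 and 0.0556 in KO P12, also lower in both KO libraries. Sun1 to Sycp3 was 0.1505 and 0.135 in WT P12 against 0.217 and 0.179 in KO P12, higher in both KO libraries. The share of all tested genes whose ratio to Sycp3 separates the P12 groups was not computed.

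With age in WT, the samples were compared between P12 and the libraries labelled WT P18. As labelled, none of the 6 genes passed in edgeR on all 8 libraries, where 0% of genes were called, against 1082 genes at an unadjusted p under 0.05, 408 called by DESeq2 and 0 by limma. The log2 fold change of P18 from P12 was 1.24 ± 0.98 for Spdya, 0.91 ± 0.57 for Majin, 0.74 ± 0.58 for Terb2, 0.65 ± 0.71 for Terb1, 0.20 ± 0.25 for Sun1 and -0.01 ± 0.15 for Cdk2 (SE, n = 2 per group, adjusted p = 0.614 to 0.988, edgeR). For Terb1, Terb2, Majin, Sun1 and Spdya, WT P18 replicate 1 lay within or below the WT P12 values and WT P18 replicate 2 above them. Without the 2 libraries whose Alkbh5 goes against the label, edgeR called 5 of the 6 higher at P18, against 26.4% of all tested genes called higher. Spdya rose by 1.96 ± 0.20 on the log2 scale (adjusted p = 0.000933), Majin by 1.46 ± 0.25 (0.00567), Terb1 by 1.26 ± 0.15 (0.00150), Terb2 by 1.22 ± 0.35 (0.0340) and Sun1 by 0.45 ± 0.10 (0.0131), all in edgeR. That comparison sets WT P18 replicate 2 alone against the 2 WT P12 libraries. Cdk2 did not pass (0.09 ± 0.08, adjusted p = 0.420, edgeR).

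In KO, P18 was compared with P12 in the same way. Terb1, Terb2, Majin, Sun1 and Spdya had higher FPKM in both libraries labelled KO P18 than in both KO P12 libraries, as did 22.2% of tested genes. None passed in edgeR, where 0% of genes were called, against 3180 at an unadjusted p under 0.05 and 31 called by limma. The values were 2.74 ± 1.03 for Spdya, 2.00 ± 0.73 for Terb1, 1.66 ± 0.59 for Majin, 1.06 ± 0.58 for Terb2 and 0.46 ± 0.25 for Sun1 (adjusted p = 0.262 to 0.305, edgeR). DESeq2 called Spdya (2.80, adjusted p = 0.0232), Terb1 (2.05, adjusted p = 0.0352) and Majin (1.72, adjusted p = 0.0415), 3 of the 6, against 10.6% of genes called higher. Without the 2 libraries, which leaves KO P18 replicate 2 alone against KO P12, edgeR called 2 of the 6 higher, against 7.08% of genes. These were Terb1 (0.89 ± 0.15, adjusted p = 0.0239) and Spdya (0.96 ± 0.21, adjusted p = 0.0410), and Majin came next (1.02 ± 0.25, adjusted p = 0.0576, edgeR). Leaving out KO P18 replicate 1 thus took Spdya's value from 2.74 to 0.96 and Terb1's from 2.00 to 0.89. Cdk2 had lower FPKM at P18 than at P12 in both genotypes without overlap, as 31.3% of genes had in WT and 33.5% in KO. After TMM scaling its differences were -0.01 ± 0.15 in WT and 0.01 ± 0.15 in KO, and with library totals in place of TMM the KO value was -0.17. That change of scaling moved the median of all genes by -0.12 in WT and -0.16 in KO.

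At P18, KO was compared with WT at the age when most spermatocytes are in pachytene and diplotene, per the series description. Markers of those stages summed to 1440 FPKM in WT P18 replicate 2 and 1837 in KO P18 replicate 1. They summed to only 92.1 in WT P18 replicate 1 and 101 in KO P18 replicate 2, against 63.4 and 104 in WT P12. As labelled, the groups overlapped for Terb1, Terb2, Majin, Sun1 and Spdya, and none of the 6 genes passed in edgeR, where 0% of genes were called, against 189 at an unadjusted p under 0.05, 76 called by DESeq2 and 27 by limma. Terb1 differed by 0.45 ± 0.70 on the log2 scale, Spdya by 0.36 ± 0.97, Sun1 by 0.03 ± 0.25, Cdk2 by 0.02 ± 0.15, Majin by -0.01 ± 0.57 and Terb2 by -0.08 ± 0.57 (SE, n = 2 per group, all with an adjusted p of 1, edgeR). Cdk2 FPKM was lower in both KO P18 libraries than in both WT P18 libraries, as in 6.71% of tested genes, while its TMM-scaled value above has the opposite sign. The order of the 4 libraries did not follow the labels. By FPKM, WT P18 replicate 2 and KO P18 replicate 1 were above WT P18 replicate 1 and KO P18 replicate 2 in 5 of the 6 genes. This order was found in 30.4% of tested genes, and the opposite order in 50.9%. In TMM-scaled CPM (counts scaled by TMM and library depth) Cdk2 had this order too, with 201 and 212 against 176 and 170. Between the libraries labelled WT P18, the FPKM of replicate 2 was 4.26 times that of replicate 1 for Spdya, 2.89 times for Terb1, 2.46 times for Majin, 2.12 times for Terb2, 1.34 times for Sun1 and 1.04 times for Cdk2.

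Without the 2 libraries, the P18 comparison is KO P18 replicate 2 against WT P18 replicate 2, with no replicate at that age. All 6 genes were then lower in KO, and edgeR called 4, against 22.4% of all tested genes called lower. Spdya fell by 2.14 ± 0.25 on the log2 scale (adjusted p = 0.00267), Terb1 by 1.26 ± 0.18 (0.00454), Majin by 1.20 ± 0.30 (0.0253) and Sun1 by 0.51 ± 0.11 (0.0183), all in edgeR. Terb2 (-1.23 ± 0.43, adjusted p = 0.0661) and Cdk2 (-0.25 ± 0.09, adjusted p = 0.0771) did not pass in edgeR, and DESeq2 called all 6 lower, as it did 22.3% of genes. The directions of Terb1, Sun1, Spdya and Cdk2 were thus opposite with and without these libraries. Pachytene and diplotene markers, which summed to 92.1 FPKM in WT P18 replicate 1, 1440 in WT P18 replicate 2, 1837 in KO P18 replicate 1 and 101 in KO P18 replicate 2, moved with the same libraries, and their part was not tested. Leptotene and zygotene markers summed to 309, 455, 482 and 328 FPKM in the same order.

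**Figure D3:**
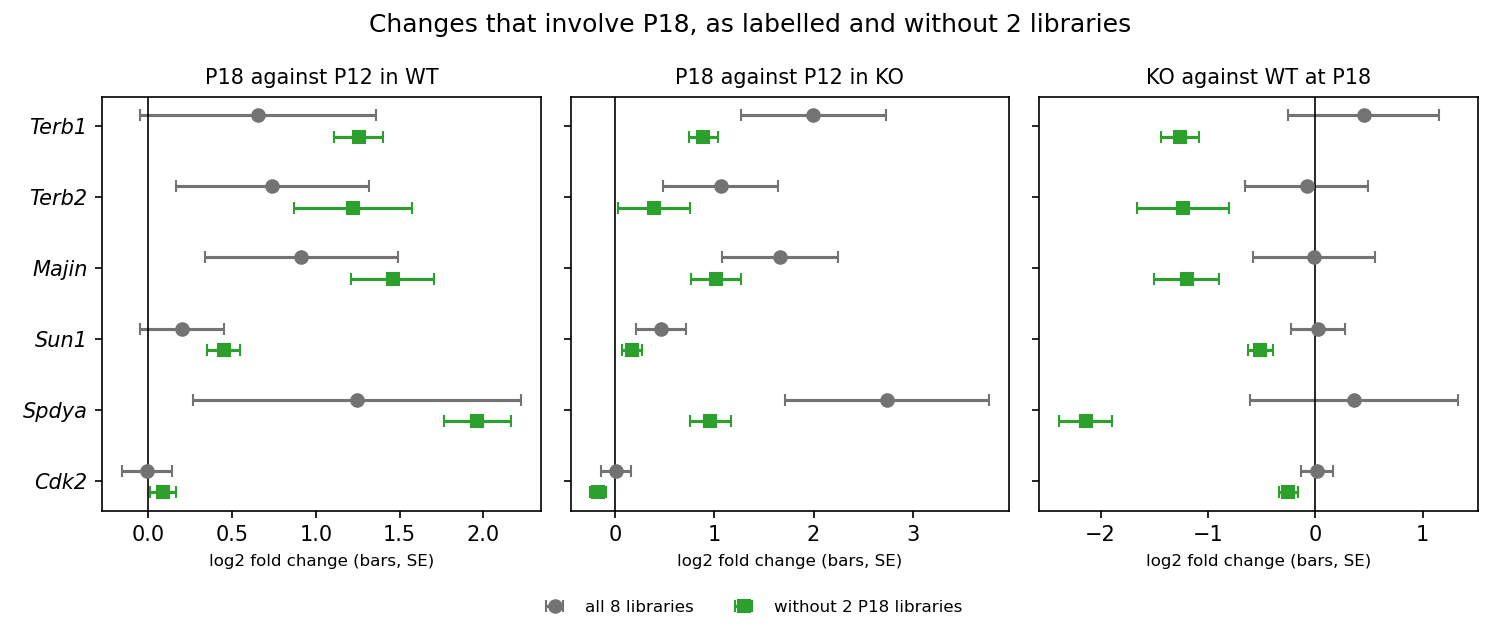
Log2 fold changes (x axes) of the 6 genes (y axis) for the change with age in WT (left), the change with age in KO (middle) and the genotype difference at P18 (right), in edgeR, with bars of 1 SE. Grey circles use all 8 libraries and green squares leave out replicate 1 of both P18 groups. The KO against WT value of Spdya is 0.36 with all 8 libraries and -2.14 without the 2.

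Whether the change with age differed between the genotypes was tested as an interaction, the KO change minus the WT change. None of the 6 genes passed (Spdya 1.496 ± 1.37, Terb1 1.34 ± 0.999, Majin 0.75 ± 0.81, Terb2 0.32 ± 0.81, Sun1 0.26 ± 0.35, Cdk2 0.01 ± 0.21, all with an adjusted p of 1, edgeR), where 0% of genes were called in edgeR, 160 had an unadjusted p under 0.05, DESeq2 called 45 and limma 7. Without the 2 libraries all 6 values were negative and none passed in edgeR, where 11.1% of genes were called lower. Spdya came closest at -1.004 ± 0.30 (adjusted p = 0.0766, edgeR) and was called by DESeq2 (-0.996, adjusted p = 0.0222), which called 14.5% of genes lower.

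Partner lists at P18 gave no call in edgeR with all 8 libraries. The lowest p in each list at P18 between genotypes belonged to Terf2 (0.14 ± 0.19) and Terf1 (0.18 ± 0.32) in shelterin, Tor1a (-0.21 ± 0.16) and Lmna (0.27 ± 0.27) in the membrane bridge and lamina, Sycp1 (0.34 ± 0.32) and Rec8 (-0.32 ± 0.33) in the synaptonemal complex list, and Ccne2 (0.24 ± 0.24) and Ccna1 (1.86 ± 2.27) among the cyclins. None of these passed. With age in WT the lowest p belonged to Pot1b (-0.34), Pot1a (-0.26), Tor1a (-0.38), Syne1 (0.53), Rec8 (0.61), Hormad1 (0.67), Ccna2 (-0.64) and Ccna1 (3.97), and with age in KO to Pot1a (-0.47), Terf2 (0.32), Tor1a (-0.59), Ccdc155 (2.49), Sycp1 (1.20), Hormad1 (1.66), Ccne2 (0.64) and Ccne1 (0.51), on the log2 scale, and none passed (adjusted p = 0.262 to 0.685, edgeR). In the interaction they were Tinf2 (0.26), Terf2 (0.19), Lmna (0.38), Tor1a (-0.21), Sycp1 (0.84), Sycp3 (0.96), Ccne1 (0.62) and Ccne2 (0.47), none of which passed. DESeq2 with all 8 libraries called Ccdc155, Sycp1, Sycp2, Sycp3, Hormad1, Hormad2 and Ccna1 higher and Tor1a lower with age in KO, where it called 10.6% of all tested genes higher and 3.68% lower, and no gene of these 4 lists in the other P18 comparisons. Of the 7 cyclin-dependent kinases and inhibitors it called Cdkn1a, an inhibitor, higher and Cdk6 lower with age in WT (1.53 and -0.72, adjusted p = 0.00301 and 0.00321, DESeq2) and in KO (1.93 and -0.85). With age in WT, DESeq2 called 1.69% of all tested genes higher and 0.748% lower. Of the 7 dynein motor genes it called Dync1h1, the heavy chain, higher with age in KO (0.65, adjusted p = 0.0310, DESeq2).

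In the analysis without the 2 libraries, edgeR called 26.4% of all tested genes higher and 18.6% lower with age in WT, 7.08% higher and 3.74% lower with age in KO, and 15.6% higher and 22.4% lower in KO at P18, and the counts of each list are to be read against these shares. Ccdc155 rose with age in WT by 2.07 ± 0.20 on the log2 scale (adjusted p = 0.000806, edgeR) and in KO by 1.09 ± 0.21 (adjusted p = 0.0313, edgeR), and was lower in KO than in WT at P18 (-1.94 ± 0.25, adjusted p = 0.00358, edgeR). Of the 7 shelterin genes, Terf1 and Acd rose and Pot1a and Pot1b fell with age in WT, 2 in each direction and near the shares over all genes, and none passed in KO. Terf1, which TERB1 binds, had 0.52 ± 0.13 and Pot1a, which covers single-stranded telomere DNA, -0.57 ± 0.11 (adjusted p = 0.0216 and 0.00987, edgeR). At P18, Terf2ip was higher and Tinf2, Acd and Terf1 were lower in KO. Of the 13 membrane bridge and lamina genes, Ccdc155, Sun3 and Banf1 rose and Lmnb2, Syne2 and Tmpo fell with age in WT, 3 in each direction and also near those shares, and Ccdc155 and Sun2 rose in KO. At P18, Syne2, Sun2, Emd and Lmnb2 were higher and Sun3, Ccdc155 and Banf1 lower in KO. Of the 14 synaptonemal complex and cohesin genes, 10 rose with age in WT (Syce1, Sycp2, Tex12, Sycp1, Hormad1, Stag3, Sycp3, Rec8, Syce3 and Hormad2) and 6 in KO (Rec8, Sycp2, Sycp1, Tex12, Sycp3 and Hormad1), led in WT by Syce1, a central element protein (1.70 ± 0.09, adjusted p = 0.000123, edgeR). At P18, 7 were lower in KO (Syce1, Sycp2, Syce3, Stag3, Hormad2, Tex12 and Hormad1). Of the 4 cyclins, Ccna1 and Ccne2 rose and Ccna2 fell with age in WT, and Ccna1 was lower and Ccna2 higher in KO at P18. Cdkn1a rose and Cdk6 fell with age in WT and in KO. Of the dynein motor genes, Dync1i2 and Dync1h1 rose and Ndel1 fell with age in WT, none passed with age in KO, and Dync1i2 and Dynll1 were lower and Ndel1 higher in KO at P18. In the interaction, where 2.68% of genes were called higher and 11.1% lower, Dync1i2 was called (-0.68 ± 0.16, adjusted p = 0.0472, edgeR). Syce1 was also called in the interaction (-1.39 ± 0.13, adjusted p = 0.00418, edgeR), as was Ccna1, the cyclin of late spermatocytes, among the 4 cyclins (-5.16 ± 0.69, adjusted p = 0.00950, edgeR). The synaptonemal complex list shares Rec8, Sycp3 and Hormad1 with the leptotene and zygotene markers, and Ccna1 is also a pachytene marker.

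Ratios within a library show how unevenly the 6 genes varied. The FPKM ratio of Spdya to Cdk2, activator to kinase, was 0.360 and 0.418 in WT and 0.1505 and 0.203 in KO at P12, and 0.350 and 1.43 in WT and 1.81 and 0.387 in KO at P18. It was lower in both KO P12 libraries than in any other library, as was the FPKM of Spdya alone. The subunit ratio of Majin to Terb2 lay between 1.46 and 2.60 in the 8 libraries, and Ccdc155 to Spdya between 1.43 and 2.02, although each of these genes alone varied more. Sun1 to Sun2, a ratio of SUN proteins that both occur at meiotic telomeres, was 1.12 and 1.10 in WT and 0.845 and 1.11 in KO at P12, and 0.673 and 1.50 in WT and 1.77 and 0.708 in KO at P18. Sun1 to Terb1 was 3.62 and 3.58 in WT P12 and 5.85 and 5.55 in KO P12, higher in both KO libraries. At P18 it was 4.45 and 2.06 in WT and 1.504 and 3.46 in KO. For these ratios too, the share of gene pairs whose ratio separates the P12 groups was not computed.

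**Figure D4:**
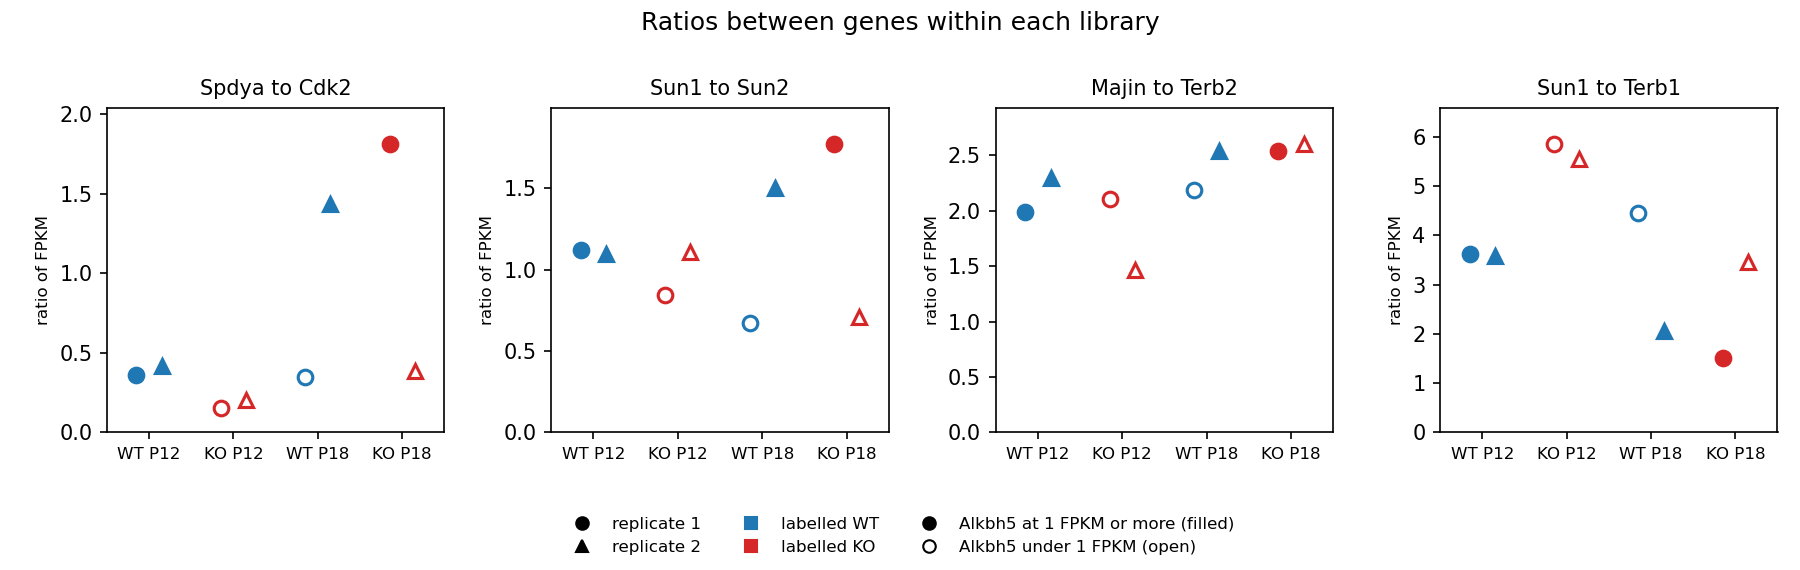
FPKM ratio of gene pairs (y axes, from 0) in each of the 8 libraries by labelled group (x axes), with colours and symbols as in the plot of levels. Spdya to Cdk2 is 1.43 in WT P18 replicate 2 and 1.81 in KO P18 replicate 1 and at most 0.418 in the other 6, and Majin to Terb2 lies between 1.46 and 2.60.

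The genes with the most similar pattern were found by Pearson correlation of log2(FPKM + 1) over the 8 libraries, among the 9824 tested genes that had at least 5 FPKM in a library, were not among the 6 and had no predicted or clone name. The r values are a description of libraries that share their depth and cell makeup, and WT P18 replicate 2 and KO P18 replicate 1 carry much of the range, so r over the 6 libraries other than these 2 is given beside it. Spdya was most like Rimklb (r = 0.998, then 0.990 over 6 libraries), Kctd19 (0.997, 0.990) and Ybx2 (0.996, 0.975), of which Ybx2 is a germ cell RNA-binding protein and one of the pachytene markers used here. Terb1 was most like Zfp800 (0.995, 0.976), Strbp (0.994, 0.970), which encodes a spermatid RNA-binding protein, and Kif15 (0.993, 0.978), a spindle motor. Majin was most like Msh4 (0.991, 0.988), a meiotic crossover factor, then Ptchd3 (0.988, 0.987) and Pemt (0.987, 0.981). Sun1 was most like Msh5 (0.969, 0.969), the partner of Msh4, then Tex30 (0.969, 0.921) and Ddx28 (0.968, 0.918). Terb2 was most like Psmd2 (0.979, 0.931), a proteasome subunit, Nelfe (0.977, 0.934) and Sbf1 (0.970, 0.943). Cdk2 was most like Pwp1 (0.974, 0.964), Hjurp (0.973, 0.966), a centromere chaperone, and Park7 (0.967, 0.952). Among the 6 genes themselves, Terb1 and Spdya had an r of 0.990 over 8 libraries and 0.952 over 6, and Terb2 and Majin 0.951 and 0.816. By FPKM, Cdk2 had an r of -0.49 to -0.21 with the other 5 over 8 libraries. Over 6 it was -0.34 to 0.067, positive with Sun1. The sign for Cdk2 may depend on the scaling. In TMM-scaled CPM, Cdk2 was highest in KO P18 replicate 1 (212) and WT P18 replicate 2 (201), as was Spdya (135 and 102). Cdk2 was lowest in KO P18 replicate 2 (170) and WT P18 replicate 1 (176), and Spdya in the KO P12 libraries (10.1 and 13.6). Correlations of TMM-scaled CPM are not given here.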

How the data were processed

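Poly(A) RNA from whole testis was sequenced as read pairs from libraries with a dUTP-marked second strand, per the labels' protocols. Reads were handled with HISAT2 2.2.1 and cutadapt 1.9, with StringTie 2.1.6 and GRCm38 also listed, per the submitters' processing notes, which give no roles. For every gene, the deposited table holds 2 values per library: a count, a whole number that the authors did not normalize as far as the values show, and an FPKM value, which per the file headers is scaled for length and depth. The tool that made the counts and its strand setting are not given in the sources used here. All 38163 rows have a gene name.

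Tests covered the 16702 genes that reached 1 FPKM in 2 or more libraries. Counts were scaled by TMM and tested, two-sided, with edgeR 4.0.16 (R 4.3.3) by the quasi-likelihood F-test, with group means, at an adjusted p of 0.05 (Benjamini-Hochberg over all genes tested). KO against WT at P12 used the 4 P12 libraries (2 residual degrees of freedom), and the other comparisons all 8 (4 residual degrees of freedom). The P12 fit was limited to its own libraries with earlier results of these data known. Those had shown 1 library in each P18 group with Alkbh5 against its label. The SE is the fold change divided by the square root of F. Counts were simulated with edgeR's own estimates of each gene's spread, and the changed genes were drawn only from those with a mean count above 200. The shares called therefore hold for well-counted genes under that model, and power for other genes was not measured. On simulated counts for P12, a log2 change of 1 was called in 88.5% of 200 changed genes among 16702. On those for P18 with all 8 libraries it was called in 0%, a change of 2 in 7.50% and of 3 in 80.5%, so the P18 tests had little power.

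Alternatives were DESeq2 1.42.0, limma 3.58.1 with trend on log2(FPKM + 1) or log2(FPKM + 0.1), no filter on low values, a filter of 5 FPKM, other scalings, the replicate number as a term, other sets of libraries, leaving out each library, and TMM-scaled CPM in place of FPKM. DESeq2 on all 8 libraries for P12, DESeq2 without WT P18 replicate 1 and KO P18 replicate 1 and fits with crossed replicate numbers were added after the data were seen. Genes named are the 6, Alkbh5, genes of the partner lists called in a comparison or otherwise the 2 with the lowest p, and per member the 3 genes with the highest correlation, leaving out predicted and clone names. Genes of the lists of cyclin-dependent kinases and inhibitors and of the dynein motor fall outside this rule and were named after their values were seen. Ratios to Sycp3 were added after the data were seen. The members and lists were chosen with earlier results of these data known. Exon overlaps come from GENCODE M21, and promoter windows from RefSeq on GRCm38.p6.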

Additional observations from a re-analysis of the deposited data

How the results depend on the processing

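The limits are 2 libraries per group, a pair of P18 libraries with Alkbh5 against the label, and an unstated strand setting in counting. Of 546 values of single members under an alternative, 440 kept their direction and their side of the threshold. With TMM-scaled CPM, 20 of 20 levels and ratios moved by less than 1 SD, compared only as the difference of KO P12 from WT P12. No P18 level was part of that comparison. At P18 the order of libraries for Cdk2 did depend on the scaling. Its level in KO P18 replicate 1 over that in WT P18 replicate 1 was 0.956 in FPKM and 1.21 in TMM-scaled CPM. Over KO P18 replicate 2 it was 0.988 and 1.25. For the other members these ratios were above 1 in both. Most of the 20 values are ratios of 2 genes within a library, in which the library scaling cancels. For the ratios the outcome was therefore fixed in advance and says nothing about the processing. Replicate numbers were not taken to pair the samples, since the labels give no shared source and the pairs did not all deviate together: the correlation of same-numbered deviations was 0.33 between WT P12 and WT P18, 0.12 between WT P18 and KO P12, -0.03 between WT P12 and KO P12, -0.11 between KO P12 and KO P18, -0.31 between WT P12 and KO P18 and -0.94 between WT P18 and KO P18. At P12, edgeR called 9 genes, and the count was 659 with DESeq2, 0 with limma at either pseudocount, 0 with no filter, 83 with the filter of 5 FPKM, 25 with library totals, 439 with the replicate block, 0 with all 8 libraries and 6 to 207 when 1 library was left out. For the 6 genes at P12 the count of calls was 0, and 3 with DESeq2, 2 with the filter of 5 FPKM, 3 with the replicate block (Spdya, Terb1 and Majin) and 0 to 1 with 1 library left out. The block changed no call of a member in another comparison. KO against WT at P18 had 0 genes called, and 76 with DESeq2, 27 and 2 with limma at pseudocounts of 1 and 0.1, 6357 without the 2 P18 libraries, 6498 with DESeq2 without them and 89 with replicate numbers crossed in a block. For the 6 genes at P18 these last were 4 without the 2 libraries and 6 with DESeq2 without them. For age in WT the count of genes was 408 with DESeq2, 7507 without the 2 libraries and 7502 with DESeq2 without them, with 5 and 5 members. For age in KO it was 2381 with DESeq2, 31 and 4 with limma, 5 with no filter, 5 with the filter of 5 FPKM, 1806 without the 2 libraries, 3033 with DESeq2 without them and 232 with crossed numbers, with 3, 2 and 3 members under DESeq2, without the 2 libraries and under DESeq2 without them. For the interaction it was 45 with DESeq2, 7 with limma, 2304 without the 2 libraries and 3653 with DESeq2 without them, where 1 member (Spdya) was called. Directions turned as follows, on the log2 scale, and the cause was not tested. Without the 2 P18 libraries, in edgeR and then DESeq2, KO against WT at P18 was -1.26 and -1.27 for Terb1, -0.51 and -0.52 for Sun1, -2.14 and -2.15 for Spdya and -0.25 and -0.26 for Cdk2. The interaction was -0.37 and -0.36 for Terb1, -0.83 and -0.82 for Terb2, -0.44 and -0.43 for Majin, -0.28 and -0.27 for Sun1, -1.004 and -0.996 for Spdya and -0.26 and -0.25 for Cdk2. Cdk2 with age was 0.085 and 0.11 in WT and -0.17 and -0.14 in KO. Values near 0 turned elsewhere. At P18 Terb2 was 0.045 with the replicate block, and Majin was 0.0086 with DESeq2, 0.0087 with DESeq2-style size factors, 0.12 with the block and 0.062 with crossed numbers. Sun1 at P18 was -0.064 and -0.066 with limma and -0.069 with library totals. Cdk2 at P18 was -0.082 and -0.085 with limma, -0.0074 with no filter, -0.0037 with the filter of 5 FPKM and -0.077 with library totals. Cdk2 at P12 was 0.0045 with all 8 libraries, and with age in WT 0.0072 with DESeq2 and 0.0072 with its size factors. Cdk2 with age in KO was -0.18 and -0.18 with limma, -0.030 with no filter, -0.025 with the filter of 5 FPKM and -0.17 with library totals. In the interaction Cdk2 was -0.058 and -0.060 with limma, -0.0098 with no filter and -0.043 with library totals. With 1 library left out, KO against WT at P18 ranged from -0.65 to 1.51 for Terb1, -0.75 to 0.65 for Terb2, -0.65 to 0.88 for Majin, -0.26 to 0.33 for Sun1, -1.42 to 1.87 for Spdya and -0.15 to 0.17 for Cdk2. Age in WT ranged from -0.41 to 1.26 for Terb1, -0.10 to 0.45 for Sun1, -0.26 to 1.96 for Spdya and -0.11 to 0.085 for Cdk2, and age in KO from -0.17 to 0.16 for Cdk2. The interaction ranged from -0.34 to 1.06 for Terb2, -0.024 to 0.57 for Sun1, -0.28 to 3.001 for Spdya and -0.16 to 0.16 for Cdk2, and Cdk2 at P12 from -0.049 to 0.027.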
